A study of Mus musculus with 2 samples.

Results

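CTCF sites that lay beside a stronger CTCF peak were taken from chromatin immunoprecipitation and sequencing (ChIP-seq) of newborn mouse forebrain. A site was counted where another summit, with a higher signal value, was called within 500 bp of its own. Of the 56470 sites in the optimal list, 1351 met this rule, 2.39% of the list. The members were therefore selected on their measured strength and position, and their strength, distance and partner are given as descriptions with no test. The tissue came from forebrains of mice of strain B6NCrl on postnatal day 0, pulverized and pooled from several dissections, and was immunoprecipitated with an antibody to CTCF. The series held 1 group of 2 libraries, replicate 1 and replicate 2, which cite the same biosample and donor, so that the spread between them may be technical. Each library had a peak list of its own, and both together had a pooled list. A filter on reproducibility between libraries, the irreproducible discovery rate (IDR), gave the optimal list and a conservative list. The signal value is the peak's strength in the authors' own lists, on an unstated scale. The sources used here do not give the read depth, the aligner or the peak caller, and the control experiment named in the labels was not used here.

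CTCF is a protein with a row of zinc fingers that reads a long, asymmetric DNA motif. Together with the cohesin ring it anchors chromatin loops, and in mammalian cells the anchors of a loop mostly carry motifs that point toward each other. Sites can lie side by side, as at the imprinting control region upstream of H19, where several CTCF sites insulate Igf2 from enhancers on the maternal chromosome. In neurons, CTCF is best known for promoter choice in the clustered protocadherin genes. The forebrain is a mixture of cells, so a weaker site in every cell and a site bound in fewer cells cannot be told apart in these data. Nor do the data show whether a site and its neighbour were bound on the same DNA molecule.

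The sequences that follow show what such neighbours look like where both carried a near-exact motif. In each line the 14 bases that matched the CTCF core motif are in capitals, 8 bases of flank stand on either side, and the strand of the motif is read 5′ to 3′. All come from RefSeq's GRCm38 (mm10) sequence. In each pair the member, which is the weaker site, is given before its stronger partner. At 4924 bp from the start of Aqp5, a water channel gene, both motifs lay on the plus strand with 0 mismatches, at chr15:99596145-99596174 and chr15:99596577-99596606.

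Aqp5 member: agttccagCCAGCAGGGGGCAGactcgtcc

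Aqp5 partner: ctgtttggCCAGCAGGGGGCACtgcgcacc

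In the intron of Kcnab2, which encodes a beta subunit of voltage-gated potassium channels, both motifs lay on the minus strand with 1 mismatch each, at chr4:152435438-152435467 and chr4:152435015-152435044.

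Kcnab2 member: acaggcctCCTGTAGGGGGCGCtggtgagc

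Kcnab2 partner: ttcactggCCACTGGGTGGCGCtgctgcag

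In the intron of Nlrc5, a regulator of MHC class I genes, the motifs pointed toward each other. The member had 1 mismatch on the plus strand at chr8:94492144-94492173 and the partner 0 mismatches on the minus strand at chr8:94492576-94492605.

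Nlrc5 member: ctgctttaCCACGAGAGGGCGCtgaaataa

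Nlrc5 partner: gcctgttgCCACCAGGGGGCAGctggaaga

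A pair with close summits lay 36084 bp from the start of Slc25a25, a mitochondrial carrier gene. Its summits were 205 bp apart and its motifs 249 bp apart, both on the minus strand with 1 mismatch. The run from motif to motif, chr2:32487294-32487556, is printed on the plus strand, so both motifs appear as their reverse complement, with the partner's motif at the left end.

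Slc25a25 pair: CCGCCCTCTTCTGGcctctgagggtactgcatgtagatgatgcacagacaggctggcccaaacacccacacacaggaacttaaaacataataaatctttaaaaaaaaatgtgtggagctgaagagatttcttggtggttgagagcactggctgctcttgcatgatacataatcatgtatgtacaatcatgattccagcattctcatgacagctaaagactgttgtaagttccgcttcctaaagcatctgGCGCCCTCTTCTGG

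Most members had no such match. At H19, which produces an imprinted noncoding RNA, the 2 members and the partner of member 1 each matched with 3 mismatches, one beyond the limit used for all counts. They are shown after their values were seen because the capitals are nearly the same at all of them. They lay on the minus strand at chr7:142580301-142580330, chr7:142580756-142580785 and chr7:142582026-142582055. The partner of member 2 also had no match within the limit used for all counts, and it is not shown.

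H19 member 1: agacgatgCCGCGTGGTGGCAGtacaatac

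H19 partner of member 1: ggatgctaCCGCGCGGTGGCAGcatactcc

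H19 member 2: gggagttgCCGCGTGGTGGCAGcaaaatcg

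At a promoter, the member nearest the start of Cutc, a gene named for copper homeostasis, had no CTCF match within 50 bp of its summit. The 61 bases around that summit, chr19:43752938-43752998 on the plus strand, held the core of the ETS transcription factor family on the other strand, here in capitals.

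Cutc member: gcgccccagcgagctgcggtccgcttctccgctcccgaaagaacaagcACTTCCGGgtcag

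The distances between a member and its partner fell into 2 ranges. The partner was the strongest pooled summit within reach, and 1306 members had 1 such summit, 44 had 2 and 1 had 3. In all, 730 members lay under 250 bp from the partner, 34 lay 250 bp to under 350 bp away and 587 lay 350 to 500 bp away. The nearest range was narrow, with 546 members at up to 210 bp. No list held summits closer than 199 bp. The same gap stood in the whole pooled list, where 5646 neighbouring summits were under 250 bp apart, 567 were 250 bp to under 350 bp apart and 8286 were 350 to 500 bp apart. The part of the peak caller in this spacing was not tested. Members were therefore described as close (under 300 bp, 750 sites) or spaced (300 bp or more, 601 sites), a split chosen after the distances were seen.

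**Figure D1:**
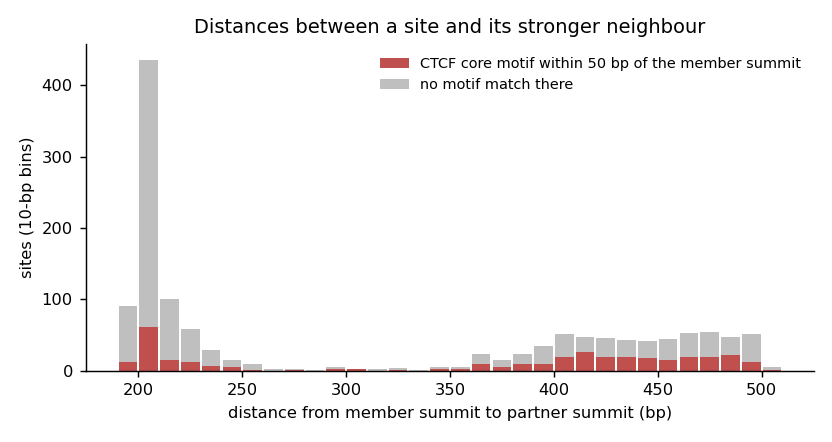
Number of members per 10 bp of distance from the member summit to the summit of its stronger partner, for members with a CTCF core motif within 50 bp of their summit (red) and without (grey). The bars reach furthest just above 199 bp, nearly vanish from 250 to 350 bp and form a broad second range up to 500 bp, where red makes up more of each bar.

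Close members were weak sites, and spaced members were nearer to the ordinary strength of the list. The signal value of close members ran from 5.29 through a median of 10.3 to 170, and that of spaced members from 5.35 through 30.3 to 300. The other sites of the optimal list had a median of 66.4. The partner had a median of 32.5 beside close members and 71.8 beside spaced members. Set as partner over member, the median ratio was 2.87 for close pairs and 1.80 for spaced pairs, and it ran from 1.00 to 31.2 over all members.

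The rule fixed only that each partner was stronger than its member, and close and spaced members were split afterwards by distance. The 51 members in the last 10 bp of the reach had a median signal value of 28.2, and the 49 other sites with a stronger summit in the 10 bp beyond it had 31.2. For 133 members the partner was less than 1.2 times as strong. For 119 members, with a median signal value of 15.4, the partner was outside the optimal list and had a median of 22.2.

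Many close members were not called as separate peaks in each library. A summit within 100 bp of the member's own was missing from the list of replicate 1 for 35.6% of close and 11.5% of spaced members, and from that of replicate 2 for 47.2% and 6.66%. Among the other optimal sites 0.867% lacked one in replicate 1 and 1.18% in replicate 2. In the weakest strength decile of the list, 40.4% of the 775 members lacked a summit in replicate 1, against 5.77% of the 4872 other sites. For replicate 2 those shares were 47.5% and 8.03%. That decile ran from 5.29 to 22.3, and 586 of its 775 members were close members, whose median over all strengths was 10.3. Each replicate list held 300000 peaks, down to a signal value of 3.2 in replicate 1 and 2.81 in replicate 2. Differences of strength inside the decile and the part of these list ends were not tested. Where the member's own summit was missing, the partner's summit was still called for 94.9% of members in replicate 1 and 94.7% in replicate 2. The q-value was above 0.05 for 51.9% of close and 6.99% of spaced members, against 0.0544% of the other sites. Of all members, 46.0% were also in the conservative list, against 87.8% of the other optimal sites. A site counted as in that list only where it had an identical summit there. The conservative list held 54779 peaks, and 49036 of the 56470 optimal sites were in it. Some members in the conservative list had no summit of their own in either library.

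Where both libraries called both summits, the partner was usually stronger in each. This was so for 686 pairs, of which 83.2% (exact 95% interval 80.2 to 86.0%) had the stronger partner in both replicates. In 0 of them was it stronger in neither (exact 95% interval 0 to 0.536%). The pooled list contains both libraries, so this is a description and no independent check. The median log2 ratio of partner to member was 1.14 in replicate 1 and 1.09 in replicate 2, with an SD of 1.02 for the difference of the 2 values within a pair. Of pairs with both summits called in a replicate and a pooled ratio under 1.5, the partner was stronger in 76.3% of 262 in replicate 1 and 72.9% of 240 in replicate 2. With a ratio of 2 or more the shares were 99.0% and 98.9%.

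**Figure D2:**
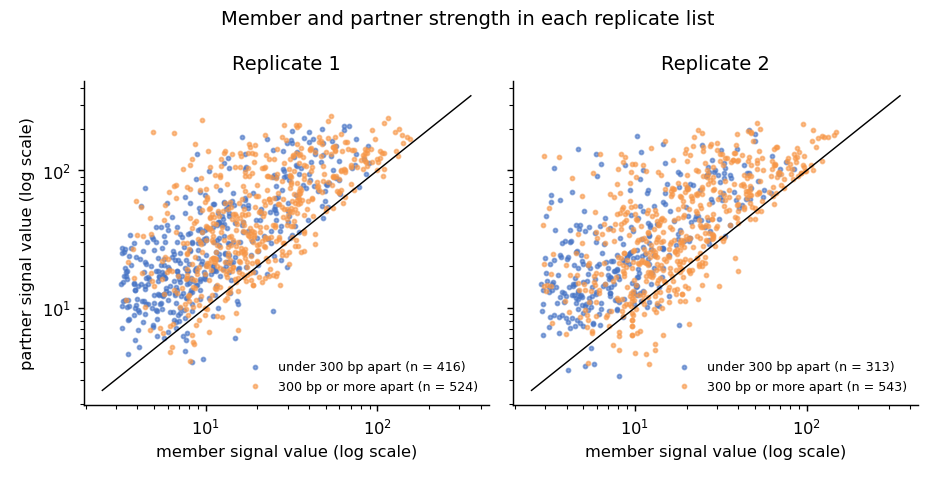
Signal value of the partner against that of the member in the list of replicate 1 (left) and replicate 2 (right), both axes logarithmic, for pairs with both summits called. Each point is a pair, blue for pairs under 300 bp apart and orange for those 300 bp or more apart, and the line marks equal values. Most points lie above the line in both panels, and those below it are mainly orange.

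The CTCF core motif was found at fewer members than at other sites. A match of at most 2 mismatches in 14 bases, wholly within 50 bp of the summit, was present at 26.4% of members (357 of 1350 on placed chromosomes, exact 95% interval 24.1 to 28.9%). It was present at 67.6% of the other optimal sites (67.2 to 68.0%), and at 66.6% of the whole optimal list. Close members had it in 15.9% (13.3 to 18.7%) and spaced members in 39.6% (35.7 to 43.6%). Matches with 0 mismatches stood at 1.78% of members and 9.63% of the other sites. These intervals cover counting error only and treat sites as independent units, which they are not.

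Weak sites of the list carried the motif less often, so the shares were set side by side within bins of strength. From here on, like strength means the same bin of signal value. With the other sites weighted to the members' strength deciles, the expected share was 50.1%, and members stood 23.6 points below it (95% interval 21.4 to 25.9 points below). With 50 strength bins in place of 10 the difference was -16.9 points (-19.6 to -14.2). In the weakest decile 11.7% of members and 41.3% of the other sites had a motif. In the eighth decile the shares were 78.4% of 37 members and 81.0% of the other sites. The bins match strength only in part. The weakest decile ran from 5.29 to 22.3 and held 775 of the 1350 members, and the difference was smaller with 50 bins. Differences of strength inside a bin were not tested. Strength itself chose the members, so no p is given.

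Nearly 1 member in 2 was at a gene promoter. The summit lay within 1 kb of a protein-coding transcription start site (TSS) for 48.2% of members (651 of 1350, 45.5 to 50.9%), against 15.8% of the other optimal sites (15.5 to 16.1%) and 16.6% of the whole optimal list. The share was 48.5% for close and 47.9% for spaced members. At like strength the other sites had 18.6%, and members stood 29.6 points higher (26.9 to 32.3). With 50 bins the difference was 21.6 points (18.3 to 24.8). It was then 16.6 points (11.95 to 21.1) for close and 27.8 points (24.0 to 31.7) for spaced members. Turned round, members made up 6.96% of all promoter sites of the list, against 1.43% of intronic and 1.38% of intergenic ones. Introns held 25.9% of members and 43.8% of the other sites, intergenic DNA 20% and 35.1%, and exons 5.85% and 5.36%.

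**Figure D3:**
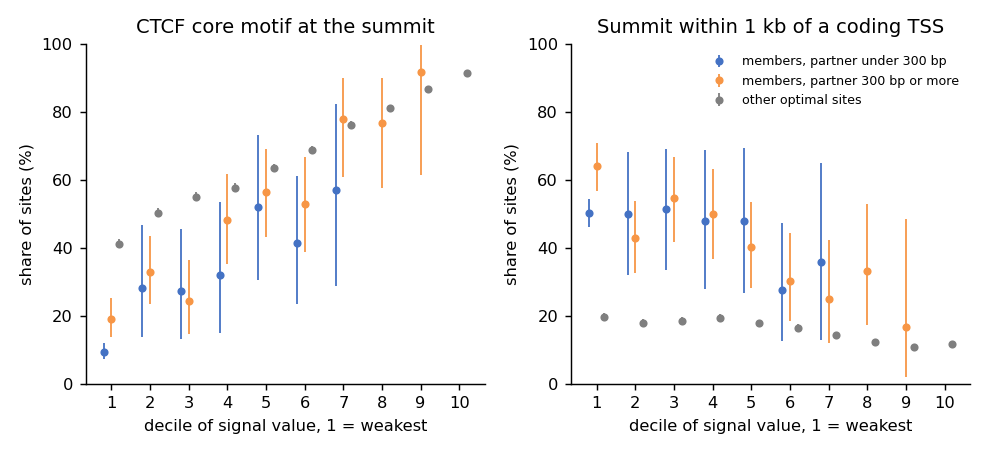
Share of sites with a CTCF core motif at the summit (left) and share with the summit within 1 kb of a coding TSS (right), by decile of signal value, for close members (blue), spaced members (orange) and other optimal sites (grey), with exact 95% intervals and groups of at least 10 sites. In the weakest deciles both kinds of member lie below the grey points on the left, and in most deciles above them on the right.

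The members' motif share stood further below that of other sites of like strength away from promoters than at promoters. At promoters 16.7% of members had a motif, against 20.3% of the other promoter sites at like strength, a difference of -3.56 points (-6.68 to -0.437) that was -1.46 points (-4.96 to 2.06) with 50 bins. Close members at promoters had 11.6%, against 17.6% of the other promoter sites at like strength (-6.05 points, -9.79 to -2.31), which was -2.91 points (-7.44 to 1.62) with 50 bins. Spaced members at promoters had 23.3%, against 23.7% at like strength (-0.422 points, -5.20 to 4.36). Away from promoters 35.5% of members had a motif, against 58.3% of other sites at like strength, a difference of -22.8 points (-25.9 to -19.7), or -17.6 points (-21.3 to -13.9) with 50 bins. The difference between the promoter and non-promoter contrasts was not tested.

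Members lay in DNA richer in G and C. The median GC content of the 201 bp around the summit was 55.7% at members and 49.3% at other sites, and the median number of CG dinucleotides was 6 and 3. A repeat, as soft-masked in the genome sequence, covered the summit of 10.4% of members and 17.9% of other sites. The part of GC content in the motif and promoter shares was not tested.

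A motif in both sites of a pair was the least usual case at promoters and a common one elsewhere. Of all members, 17.6% had a motif at both summits, 27.1% at the partner alone, 8.89% at the member alone and 46.4% at neither. At promoters 61.3% of pairs had a motif at neither summit and 6.91% at both. Away from promoters 32.6% had it at neither and 27.5% at both, and among spaced pairs there the share with both reached 44.7%. Pairs with both motifs were strong, with a median signal value of 52.3 at the member and 154 at the partner. Pairs with neither had medians of 11.4 and 30.2.

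Where the motif of a promoter pair was at the partner alone, the member usually lay nearer the gene start. Its summit was the nearer one in 62.9% of 143 such pairs (54.5 to 70.9%), at a median of 193 bp from the TSS, against 322 bp for the partner. Over all 651 promoter pairs the member was nearer in 53.6% (49.7 to 57.5%), and with no motif at either summit in 50.6%. With a motif at both summits it was nearer in 53.3% of 45 pairs, and at the member alone in 51.6% of 64. A promoter pair was one whose member lay within 1 kb of a TSS, with no such condition on the partner. That choice can favour a nearer member, and its share in these values was not tested. The TSS lay between the summits in 52.1% of spaced and 32.2% of close promoter pairs.

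Among the 542 promoter members without a CTCF match, cores of other promoter factors were searched as exact letters on both strands within 50 bp of the summit. The GC box of the Sp family, GGGCGGG, was present at 9.78% of them and at 9.69% of the 5448 other promoter sites without a CTCF match. The ETS core CCGGAAGT stood at 2.03% and 1.47%, and the YY1 core AAGATGGC at 0.738% and 1.49%. The NRF1 core GCGCATGC was present at 0 of the 542 members, which allows a share of up to 0.554%, and at 1.34% (1.05 to 1.68%) of the other promoter sites. The CRE core TGACGTCA, read alike on both strands, stood at 0.184% and 0.624%, and the AP-1 core TGANTCA at 0.738% and 1.10%. No core contains another, and a match is a description, not a site. The shares of these cores were not compared at like strength.

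The strands of neighbouring motifs showed no bias that passed the test. Strand was not used to choose the members. In 237 pairs both summits had a motif, and 51.1% (exact 95% interval 44.5 to 57.6%) had both on the same strand, with an adjusted p of 0.795 by the exact binomial test against 50%. The 2-sided tests were adjusted by Benjamini-Hochberg over 5 orientation tests. Of the 116 pairs on opposite strands, 57.8% (48.2 to 66.9%) pointed toward each other, with an adjusted p of 0.198 by the exact test. Of 600 members whose partner had a motif, 53.5% (49.4 to 57.6%) lay on its 3′ side, with an adjusted p of 0.198 by the exact test. The 3′ side held 55.3% of the 237 members with a motif of their own (exact test, adjusted p = 0.198) and 52.3% of the 363 without (exact test, adjusted p = 0.501).

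Convergent motifs made up more of these opposite-strand pairs than of those 1 to 5 kb apart. Among consecutive optimal sites 1 to 5 kb apart with a motif each, 40.9% (38.9 to 43.0%) of 2225 opposite-strand pairs were convergent, and the members' pairs stood 16.8 points above this (95% interval 7.49 to 25.7). The same-strand share of 4976 such neighbours was 55.3% (53.9 to 56.7%), and the members' pairs stood at -4.23 points from it (-10.7 to 2.22). At over 500 to 1000 bp the convergent share was 48.2% (43.3 to 53.1%). That interval overlaps the 48.2 to 66.9% of the members' pairs. The convergent share was 41.0% at over 1000 to 2000 bp and 40.9% at over 2000 to 5000 bp. Where the partner was at least 2 times as strong, the convergent share was 51.4% of 72 opposite-strand pairs. This comparison was made after the values were seen, and the pairs differ from those neighbours in strength as well as distance.

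**Figure D4:**
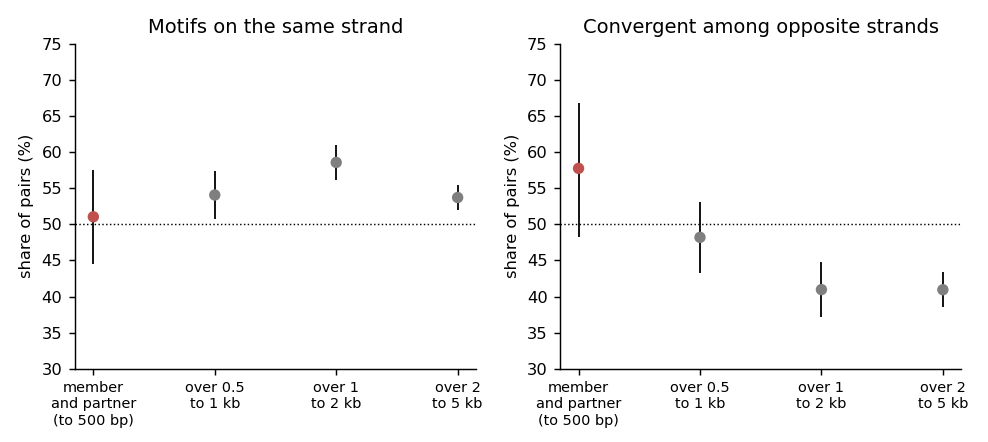
Share of motif pairs on the same strand (left) and share of opposite-strand pairs whose motifs point toward each other (right), for members with their partner (red) and for consecutive optimal sites further apart (grey), with exact 95% intervals and 50% dotted. The red interval includes 50% in both panels, and the grey convergent shares beyond 1 kb lie below it.

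In a pair the member's motif tended to be the poorer match. It had more mismatches than the partner's in 87 of the 237 pairs, the same number in 113 and fewer in 37. The partner was stronger by the rule, so this is a description. In 57 pairs both motifs had at most 1 mismatch, and in 4 both had 0. Copies of a duplicated stretch were few. Of the 40 bases flanking the motif, 20 on each side, a median of 11 were alike between member and partner, and in 4 pairs 30 or more were, up to 36.

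The strongest members stood beside partners of similar strength, with pooled ratios of 1.01 to 1.78 for the top 10. Those 10 members had signal values of 230 to 300, and no partner of any member exceeded 473. Large ratios were therefore not possible among them. In the Kcnab2 intron the member had a signal value of 155 in replicate 1 and 145 in replicate 2, and the partner 171 and 181. Both libraries placed the partner above the member there. Near Aqp5 the member had 141 and 117 and the partner 159 and 171. At Aqp5, as at Kcnab2, the values of member and partner did not overlap. The rule had chosen the stronger pooled summit as partner, and pairs without overlap were not counted over all members. In the Nlrc5 intron, where motifs converge, the member had 109 and 93.2 and the partner 102 and 96.5. The order of the Nlrc5 sites thus changed between the libraries, and their pooled ratio was 1.00. In 8 of the 10 strongest pairs with at most 1 mismatch at both summits, the partner was higher in both replicates. These 10 pairs were on the same strand in 6 cases, convergent in 3 and divergent in 1.

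**Figure D5:**
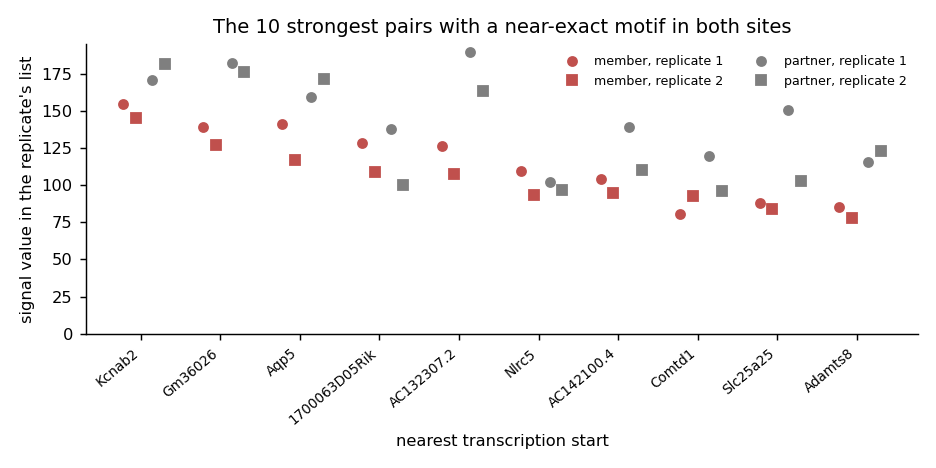
Signal value in the list of each replicate for the member (red) and the partner (grey) of the 10 strongest pairs with at most 1 mismatch at both summits, named by the nearest transcription start. Circles are replicate 1 and squares replicate 2. The partner lies above the member in both replicates for 8 of the 10 pairs.

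Of the 10 members with the highest signal value, 9 had a motif of their own and 2 were at promoters. Of the other sites in deciles 9 and 10 of signal value, 86.8% and 91.4% had the motif. At promoters were 10.7% and 11.6% of those sites. All 10 members lay 411 to 491 bp from the partner. The highest, 300, was in an intron of Igsf8, an immunoglobulin superfamily gene, with 150 and 148 in the replicates. Its partner had 174 and 191 and no motif match. The promoter members were at Hook2, a microtubule adaptor gene, with 134 and 133 against 201 and 174 at the partner, and at Pts, an enzyme of tetrahydrobiopterin synthesis. At Pts the member had 132 and 114 and the partner 127 and 148, so that replicate 1 had the member higher. A member 1248 bp from the start of Wnt7b, a Wnt ligand gene, had 115 and 123, and its partner had 242 and 178.

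In the most unequal pairs the member was close to the floor of the list. No partner exceeded 473, so a ratio as large as theirs needs a weak member. The 5 largest ratios, 25.2 to 31.2, were near Zmym2, Tmem266, Trim2, Mettl14 and Rpl38. Near Zmym2, a zinc finger gene, the member had a pooled signal value of 5.38, beside a partner of 168 at 201 bp. Its own summit was called in replicate 1, at 8.84, and not in replicate 2. The other 4 had no summit of their own in replicate 1 and 3.26 to 6.23 in replicate 2, while their partners had 65.9 or more in each list. None of the 5 members had a CTCF match, and none was in the conservative list. In the weakest decile 11.7% of members had a match, and 46.0% of all members were in the conservative list. The Tmem266 member was spaced, at 491 bp, and the other 4 were close, at 200 to 204 bp.

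Members seldom gathered in 1 place. Chained within 2 kb of each other they formed 1310 places, of which 1271 held 1 member, 38 held 2 and 1 held 3. The place with 3 members was at the start of Trpc7, a cation channel gene, where all 3 shared a partner of 37.3. Their pooled signal values were 20.8, 8.35 and 8.89, and none had a summit of its own in replicate 1. Of the places with 2 members, the strongest in summed signal were near H19, Narf, Trmt12 and CR974462.6.

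The H19 members lay 2174 and 3865 bp from the gene start. Member 1 had 64.7 in replicate 1 and 47.3 in replicate 2, and its partner had 63.9 and 91.7. The libraries thus ordered them differently. Member 2 had 25.6 and 30.8 and its partner 76.5 and 44.7, higher in both. At Narf, which encodes a protein that binds prelamin A, 2 members at 473 and 485 bp stood on either side of 1 partner. The partner had 128 and 118, against 46.7 and 45.5 at the stronger member and 32.2 and 39.1 at the weaker.

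Each gene list held 0 to 2 genes with a member, and no list was tested against the rest. Of all 21924 protein-coding genes, 8073 had an optimal site within 1 kb of a TSS and 700 had a member, 8.67% of those with a site. Of 39 synapse and activity genes, 24 had a site there and 1 had a member. That gene was Homer1, a postsynaptic scaffold, with 28.4 in replicate 1 and 18.2 in replicate 2 at the member and 52.1 and 65.0 at its partner. Of 40 forebrain transcription factor genes, 18 had a site and 1, Cux1 of upper-layer cortical neurons, had a member. The Cux1 member had 15.0 and 24.7 and its partner 28.3 and 21.6, so that replicate 2 had the member higher. Of 56 clustered protocadherin genes, 40 had a site and 0 had a member, and of 26 progenitor, astrocyte and oligodendrocyte genes 11 and 0.

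Of 41 imprinted genes, 20 had a site and 2 had a member, Peg13 and Inpp5f. Peg13, an imprinted noncoding RNA within Trappc9, had a member of 60.0 and 52.3 in the replicates, with 1 mismatch to the motif and a partner of 85.8 and 84.2 at 200 bp. The Inpp5f member, at the gene of an inositol phosphatase, was called in replicate 1 alone, at 7.81. Among 19 CTCF and cohesin genes, 13 had a site and 1, the cohesin regulator Pds5a, had a member. Among 30 housekeeping genes 12 had a site and 2 had a member, Sdha of respiratory complex II and the spliceosome gene Snrpd3. Microglia, vascular and erythroid genes, which mark other cells of the tissue, had a site at 7 of 30 and a member at 1, the tight junction gene Ocln, with 3.89 in replicate 1 and no summit in replicate 2.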

How the data were processed

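Peaks were on the mm10 assembly, per the labels. The deposited lists gave a signal value per peak, −log10 of a q-value and a summit offset (column 10), and the authors' IDR lists a score of up to 1000. The replicate and pooled lists held 300000 peaks each. Peaks were called on each library and on both together with a control, per the notes deposited with the libraries. No reads or counts were used, so the depth behind a value is unknown. A member's strength and partner came from the pooled list, and its replicate values from the nearest summit within 100 bp in each replicate's list. The 14-base CTCF core motif was searched on both strands of GRCm38.p6 with at most 2 mismatches. Genes were those of GENCODE M21 basic, 1 kb defined a promoter, and exon, intron and intergenic DNA followed in that order. Shares have exact (Clopper-Pearson) 95% binomial intervals. Differences in orientation have Newcombe intervals, and differences at like strength normal ones, over 10 or 50 bins of signal value. Strand was tested with 2-sided exact binomial tests, 1 pair per partner. The tools were pysam 0.24.0 for sequence, pandas 2.3.3 for tables and SciPy 1.17.1 for intervals and tests, all under Python 3.11.15. On simulated data the scan found 100% of 1520 planted motifs and a match in 2.03% of windows without one. Those windows drew all bases equally, so the chance rate in the GC-richer DNA of the members is not given by this. The members, lists, tests and rules were chosen with earlier results of these data known. Named were the 10 strongest members, the 10 strongest pairs with at most 1 mismatch in both motifs, the 5 largest ratios, up to 3 genes per list, the 5 places with most members (ties by summed signal, a choice made after the values were seen) and sequences from those pairs. The member at Cutc and the motifs at H19 were chosen after their values were seen. The annotation held 19 of the 20 CTCF and cohesin genes asked for. Members on an unplaced contig (1 site) were left out where sequence or genes were needed.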

Additional observations from a re-analysis of the deposited data

How the results depend on the processing

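The 1351 members became 193 within 200 bp, 3902 within 1000 bp, 783 with a partner at least 2 times as strong, 622 in the conservative list and 183 at or above the median signal. Close and spaced members numbered 750 and 601, and leaving out either replicate gave 1104 to 1127. The motif share was 26.4%. It was 13.5% within 200 bp, 39.1% within 1000 bp, 22.5% with a partner at least 2 times as strong, 38.1% in the conservative list, 64.5% at or above the median signal, 15.9% in close and 39.6% in spaced members. It was 9.19% with at most 1 mismatch, 56.1% with at most 3, 19.4% for motifs within 30 bp, 33.3% for motifs within 100 bp, and 31.0% to 31.9% without a replicate. The promoter share was 52.8% within 200 bp, 41.4% within 1000 bp, 43.1% in the conservative list, 27.3% at or above the median signal, and 48.5% to 49.1% without a replicate. These shares are of members alone, and other sites were not counted again under most of the settings. They are therefore not to be read against the 66.6% and 16.6% of the whole list. Among other sites, 68.75% had the motif in decile 6 of signal value, which starts at the median, and 91.4% in decile 10. At like strength the motif difference of -23.6 points was -16.9 with 50 bins and -41.2 unweighted, and the promoter difference of 29.6 points was 21.6 and 32.4. The cause of these shifts was not tested, but each setting changes which sites or matches count. Of 90 orientation alternatives, 1 passed the threshold: the same-strand share was 54.1% of 1125 pairs within 1000 bp, with an adjusted p of 0.0303 by the exact binomial test. The same-strand share turned below 50% with a partner at least 2 times as strong (46.7%), at most 3 mismatches (49.6%) and in spaced members (47.6%), and without a replicate it was 49.8% to 52.0%. Within 1000 bp the convergent share was 50.4% of 516 opposite-strand pairs. Within 200 bp the convergent share was 33.3% of 6 pairs and the 3′ side share 47.3%. The 3′ side share there was 47.4% for members with a motif of their own and 47.3% for those without. For members without a motif the 3′ side share was 45.2% at or above the median signal and 49.1% to 51.3% without a replicate. No paired analysis was possible because the series has 1 group. The promoter share, the convergent share, the split of the 3′ side, the 50 bins and the split by distance were added as alternatives after seeing the data. Signal values and lists carry no counts, so what depth limits is unknown.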
